A study of Mus musculus with 2 samples.

Results

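The 9 genes described here encode the carriers of selectin ligands and the glycosyltransferases that build the ligands on them, and they were taken by their GENCODE M21 symbols from 55536 genes. They are the mucins Selplg and Spn, the fucosyltransferases Fut7 and Fut4, the sialyltransferases St3gal4 and St3gal6, the core 2 branching enzyme Gcnt1, the galactosyltransferase B4galt1 and the Golgi glycoprotein Glg1. RNA selected for poly(A) tails came from regulatory T cells that had been through inflammation, taken from male mice aged 7 weeks and derived, per the labels, from activated regulatory T cells. Both libraries, numbered 1 and 2 here after their technical replicate numbers, come from the single biological replicate of the series. No control group is named, and the sources used here do not give the strain, genotype, sorting or inflammatory agent. SDs below (n = 2) therefore measure the spread between 2 libraries of 1 biosample and not between animals.

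Selectins are lectins of leukocytes, platelets and inflamed endothelium that let T cells tether and roll along vessel walls. They bind sialyl Lewis x, a sialylated and fucosylated sugar that on T cells sits mostly on core 2 branched O-glycans of mucin-like proteins. B4galt1 adds galactose to N-acetylglucosamine, Gcnt1 makes the core 2 branch, ST3Gal enzymes add sialic acid in alpha2,3 linkage, and Fut7 or Fut4 adds fucose. The protein of Selplg, PSGL-1, is the main P-selectin ligand of leukocytes, CD43 (Spn) carries E-selectin ligand glycans on activated T cells, and Glg1 encodes ESL-1, an E-selectin ligand of myeloid cells that otherwise resides in the Golgi.

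Library 1 held 26593141 counts over GENCODE genes and library 2 held 22036168, after the expected counts (estimates that share ambiguous reads among genes) were rounded. T cell and regulatory T cell markers were abundant in both, with Cd3e at a TPM (a level corrected for transcript length and library size) of 1122 and 1046 and Foxp3 at 87.3 and 87.4. Of the same list, Izumo1r had its higher TPM in library 1 (481 and 342) and Tnfrsf18 in library 2 (344 and 369). Transcripts of other cells differed between the libraries as well. The 4 erythroid markers had a summed TPM of 5495 (library 1) and 65.3 (library 2). The 6 macrophage markers summed to 29.5 and 68.3, with 5 of 6 higher in library 2 and with C1qc and Fcna at 0 counts in library 1. The 7 neutrophil markers summed to 2.78 and 5.71, with S100a8, Elane and Ly6g at 0 counts in both. The 4 B cell markers summed to 816 and 730, all 4 higher in library 1. The CD8 T cell markers (26.98 and 13.5) and platelet markers (3.98 and 2.91) had lower sums in library 2. So did the endothelial markers (83.2 and 78.3), but nearly all of that sum was Pecam1. The other endothelial markers, Cdh5 (0.03 and 0.93) and Emcn (0.02 and 0.98), were low and had their higher TPM in library 2. The NK cell markers had a higher sum in library 2 (158 and 237), nearly all of it Nkg7.

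Sequences are shown for Fut7 and Gcnt1, to show where transcripts of each begin, or begin to be translated. The coding sequence of Fut7 has alternative beginnings. The transcript Fut7-202 starts its coding sequence at position 25423815 of chromosome 2 (mm10, plus strand). Fut7-203 starts it at 25424766, in an exon that Fut7-202 skips, and both continue from 25424886 to 25425898. The coding stretch of each is given up to 30 bases past the point where they join, with the shared bases in capitals, from the GENCODE M21 transcript sequences.
Fut7-202: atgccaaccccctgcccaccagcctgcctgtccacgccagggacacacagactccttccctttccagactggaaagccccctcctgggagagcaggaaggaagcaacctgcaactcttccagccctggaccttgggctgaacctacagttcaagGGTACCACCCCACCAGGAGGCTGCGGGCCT
Fut7-203: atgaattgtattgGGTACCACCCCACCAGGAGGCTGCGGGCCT
The longer beginning adds 141 coding bases, or 47 codons, so that the coding sequence is 1167 bases in Fut7-202 and 1026 in Fut7-203. Each starts with atg.

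Gcnt1 has 3 separate first exons that carried RNA here. The RefSeq promoter table (GRCm38.p6) matched 8 of the 9 members with 12 windows, 3 of them for Gcnt1. The Gcnt1 stretches below lie upstream of the annotated exons on the minus strand of chromosome 19, and capitals mark CG dinucleotides. They are chr19:17372845-17373094, before the start of Gcnt1-205, chr19:17356668-17356917, before the start shared by Gcnt1-202 and Gcnt1-203, and chr19:17339569-17339755, before Gcnt1-201.
Gcnt1-205 start: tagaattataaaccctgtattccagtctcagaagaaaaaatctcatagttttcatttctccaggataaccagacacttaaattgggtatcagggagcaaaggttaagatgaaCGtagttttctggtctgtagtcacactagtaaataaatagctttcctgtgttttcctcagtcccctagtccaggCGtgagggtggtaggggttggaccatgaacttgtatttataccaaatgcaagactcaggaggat
Gcnt1-203 start: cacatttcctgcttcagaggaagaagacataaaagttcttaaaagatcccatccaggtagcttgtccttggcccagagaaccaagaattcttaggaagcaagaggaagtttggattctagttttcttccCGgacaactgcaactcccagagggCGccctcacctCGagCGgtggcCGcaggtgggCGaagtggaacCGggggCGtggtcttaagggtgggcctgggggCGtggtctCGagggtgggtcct
Gcnt1-201 start: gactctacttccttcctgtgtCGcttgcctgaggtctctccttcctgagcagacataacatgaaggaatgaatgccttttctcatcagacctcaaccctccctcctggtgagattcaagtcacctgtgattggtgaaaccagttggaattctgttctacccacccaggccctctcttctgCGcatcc
They differ in base composition. The middle stretch held 10 CG dinucleotides, and 37.8% of the 32851 windows of 250 bases in the table hold at least that many, with a median of 6. The stretch before Gcnt1-205 held 2, and that before Gcnt1-201, which is 187 bases long, held 2. The letters TATAAA, read on both strands, occurred 2 times before Gcnt1-205 and not in the other two. They occur in 12.4% of all windows.

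The 2 mucin carriers stood at the top of the group. Selplg (chromosome 5, 113818536 to 113832644, minus strand, mm10) reached a TPM of 711 (library 1) and 822 (library 2), or 766 ± 78.2 (SD, n = 2), at the 98.9 percentile of the 13718 genes detected. A gene counted as detected when its TPM was 1 or more in each library. Spn (chromosome 7, 127132232 to 127137823, minus strand) had 115 and 97.7 (106 ± 12.1), at the 86.6 percentile. Selplg was thus 6.19 times the level of Spn in library 1 and 8.41 times in library 2, on the TPM scale.

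The enzymes formed a descending series from the galactosyltransferase to the fucosyltransferases. B4galt1 (chromosome 4, 40804602 to 40854005, minus strand) had a TPM of 58.6 and 74.5 (66.6 ± 11.2, SD, n = 2). The sialyltransferase St3gal6 (chromosome 16, 58468125 to 58524243, minus strand) had 33.2 and 41.3 (37.2 ± 5.73), and St3gal4 (chromosome 9, 35046576 to 35119268, minus strand) had 30.03 and 33.8 (31.9 ± 2.66). The sialyltransferases therefore overlapped in their ranges, while B4galt1 lay above both in each library. Gcnt1 (chromosome 19, 17326141 to 17372844, minus strand) had 18.3 and 14.5 (16.4 ± 2.71). Fut7 (chromosome 2, 25423267 to 25426374, plus strand), the leukocyte enzyme that completes sialyl Lewis x, had 8.42 and 17.5 (12.9 ± 6.399). Gcnt1 stood above Fut7 in library 1, at a TPM ratio of 2.17, and below it in library 2, at 0.829. Glg1 (chromosome 8, 111154421 to 111259216, minus strand) had 79.8 and 63.4 (71.6 ± 11.6), between Spn and the enzymes by its mean.

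Fut4, the other alpha1,3-fucosyltransferase of leukocytes, was the 1 member not detected. Fut4 (chromosome 9, 14748320 to 14752393, minus strand) had 0 counts in library 1 and 23 in library 2, at a TPM of 0 and 0.42. For 0 counts a floor of 3 counts was used, a CPM (counts scaled to the library total) of 0.113, and the upper end of the exact 95% Poisson interval was a CPM of 0.139. In library 2 its CPM was 1.04, with an exact 95% Poisson interval of 0.662 to 1.57 that covers counting error only, since PCR copies are not separate molecules.

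**Figure D1:**
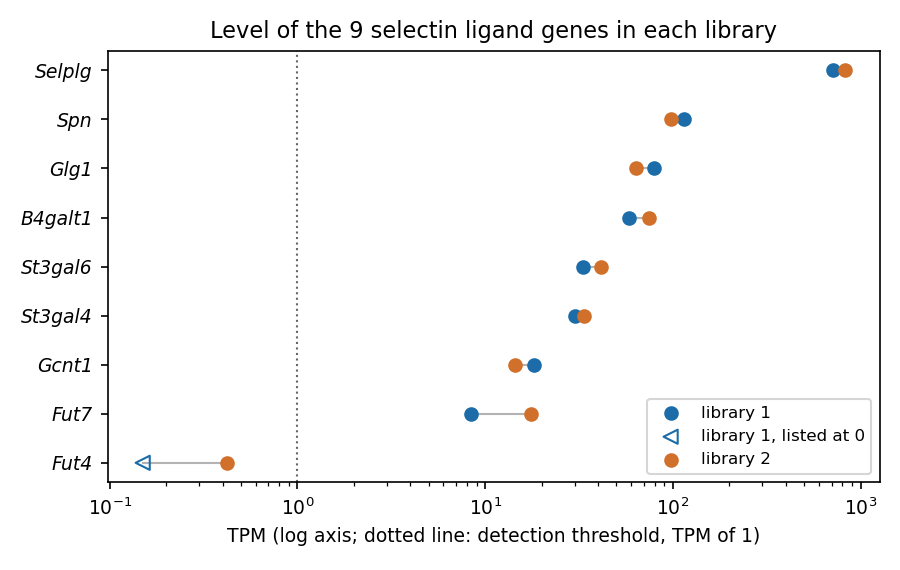
TPM (horizontal log axis) of the 9 genes in library 1 (blue) and library 2 (orange), in order of their mean, with a grey line joining both values. The open triangle stands for Fut4 in library 1, which is listed at 0 and cannot be placed on a log axis. Selplg lies far to the right of Spn, at 711 and 822 against 115 and 97.7, and Fut4 lies left of the dotted detection threshold.

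Of the 8 neighbouring pairs in this order, 5 kept their ranges apart and 3 overlapped. The overlapping neighbours were Glg1 and B4galt1, St3gal6 and St3gal4, and Gcnt1 and Fut7. The narrowest gap among the others by ratio was between Spn, whose lower value was 97.7, and Glg1, whose higher value was 79.8. The widest by ratio was between Fut7 and Fut4, with a lowest value of 8.42 against a highest of 0.42. With n = 2 technical libraries, ranges that stay apart do not show a difference between animals.

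Within its enzyme family each member took a different share of the RNA. St3gal6 took 29.6% of the summed TPM of the 6 ST3Gal genes in library 1 and 34.8% in library 2, and St3gal4 took 26.8% and 28.5%. St3gal2 followed with 19.8% and 18.2%. Fut7 took 35.1% and 44.0% of the TPM of the 5 genes named as alpha1,3-fucosyltransferases (Fut4, Fut7, Fut9, Fut10 and Fut11), behind Fut11 with 55.5% and 50.7%. Gcnt1 took 99.4% and 98.5% of that of the core 2 enzymes Gcnt1, Gcnt3 and Gcnt4, and B4galt1 took 51.3% and 53.8% of that of the 6 galactosyltransferases B4galt1 to B4galt6. St3gal6, Gcnt1 and B4galt1 had the highest TPM among the genes they were compared with in both libraries, and St3gal4 and Fut7 did not.

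The second question was how far the libraries differed in these genes. Fut7 was 2.03-fold higher in library 2 (log2 ratio of counts over library totals, library 2 over library 1, 1.02), with 278 counts in library 1 and 467 in library 2. For Fut4 the 0 counts of library 1 were set to the floor of 3. Against the 23 counts of library 2 this gave a ratio of 9.25 toward library 2. That ratio leaves out the counting error of the 23 counts, so it is not a lower bound. Adding 5 counts to each library instead gave Fut4 a log2 ratio of 2.76. The other 7 members differed by less than 1.5-fold. Glg1 was 1.35-fold (4946 and 3033 counts), Gcnt1 1.27-fold (1118 and 728) and Spn 1.12-fold (4310 and 3191) higher in library 1. B4galt1 was 1.27-fold (3734 and 3944), St3gal6 1.27-fold (763 and 803), Selplg 1.17-fold (18271 and 17650) and St3gal4 1.14-fold (821 and 775) higher in library 2, where the total was smaller. In a bulk sample, a change in the number of cells that hold an RNA and a change in RNA per cell cannot be told apart.

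All 9 members had the 10 summed counts needed for the 2-sided exact binomial test, which compares these 2 libraries and not conditions, with Benjamini-Hochberg adjustment over 24253 genes. It called 3 members higher in library 1 and 6 higher in library 2, but it called 70.3% of all genes tested, 23.9% on the side of library 1 and 46.4% on the side of library 2, so a call by this test says little about a member. With DESeq2 size factors the calls over all genes were 7794 and 9468. By the 1.5-fold rule, 0 members were higher in library 1, against 14.5% of all genes, and 2 were higher in library 2, against 39.2%. The median absolute log2 ratio was 0.35 over the 9 members, 0.70 over the genes tested and 0.29 over the detected genes. The adjusted p of Fut7 in the exact binomial test was 2.24e-20 and that of St3gal4, the largest among the members, was 0.0149. The St3gal4 call was lost with TMM scaling (adjusted p = 0.333, exact binomial test) and with DESeq2 size factors (0.619).

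The smaller table of whole-number counts, made by the authors with another annotation, gave the same direction for all 9 members. Fut7 had 184 counts in library 1 and 278 in library 2 there, 1.71-fold higher in library 2 (log2 ratio 0.78). Glg1, with 2940 and 2148, was 1.21-fold higher in library 1. Fut4 had 0 and 8 counts, under the 10 summed counts needed for the test. The exact binomial test called 4 members in the small table, namely Glg1 higher in library 1 and Selplg, Fut7 and B4galt1 higher in library 2, against 54.3% of all genes tested there. Spn (adjusted p = 0.0524), Gcnt1 (0.0620), St3gal6 (0.264) and St3gal4 (0.274) were not called by that exact test.

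**Figure D2:**
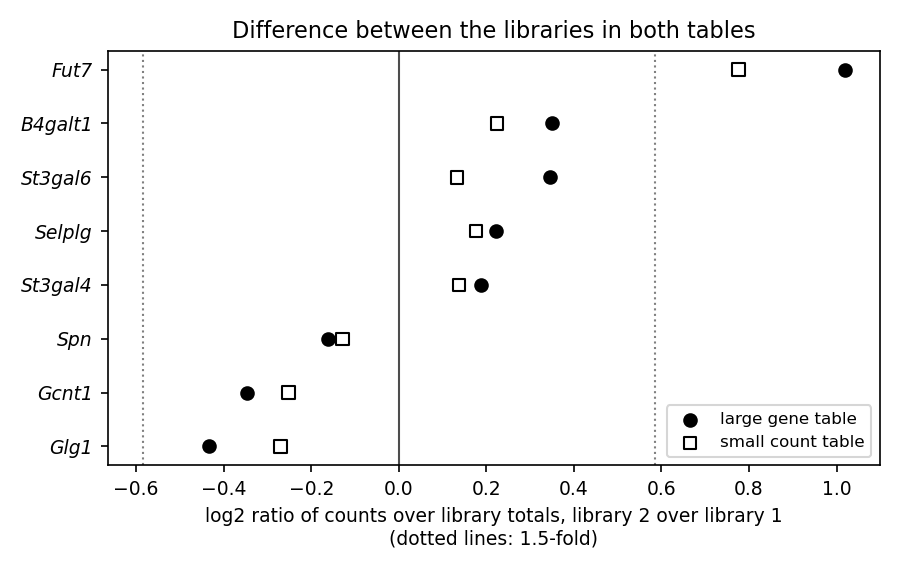
log2 ratio of counts over library totals, library 2 over library 1 (horizontal axis), for the 8 members with counts in both libraries, in the large gene table (filled circles) and the small count table (open squares). Fut7 is the 1 gene past the dotted line of 1.5-fold, at 1.02 and 0.78, and each gene lies on the same side of 0 in both tables.

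The summed levels of the macrophage, neutrophil and NK cell markers were higher in library 2, as were Fut7 and Fut4. Myeloid cells are known to make both fucosyltransferases. The summed macrophage TPM was 29.5 and 68.3, the summed neutrophil TPM was 2.78 and 5.71, and the summed NK cell TPM was 158 and 237. Library 2 had the higher value in each case. Nkg7 made up nearly all of the NK cell sums, at 153 and 233. In library 1, C1qc and Fcna had 0 counts, while Lyz2 had 500, C1qa and Adgre1 had 57 each and C1qb had 19. C1qb had a TPM of 1.10 and 17.5 and C1qa had 3.47 and 15.4, while Lyz2 went the other way, at 23.8 and 3.72. The neutrophil marker S100a9 (20 and 0 counts) and the NK cell marker Klrb1c (TPM 4.26 and 3.75) also had their lower value in library 2. The part of these cells in the Fut7 and Fut4 values was not tested.

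The transcript tables showed which annotated forms carried each gene. Of 50 annotated transcripts of the members, 24 reached 10% of their gene's TPM in a library, and 7 of the 8 genes with counts in both libraries had the same most abundant transcript in each. Fut7 was the exception. Its TPM was split between Fut7-202, the form with the longer beginning printed above, at 4.75 in library 1 and 6.23 in library 2, and Fut7-203, at 3.67 and 10.2. Fut7-202 took 56.4% of the gene's TPM in library 1 and 35.7% in library 2, and Fut7-203 took 43.6% and 58.4%. As shares of expected counts the values for Fut7-202 were 57.5% and 36.7%. These forms share most of their sequence, so their split is an estimate from the reads that tell the beginnings apart, and no error for it was computed.

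Gcnt1 RNA was assigned to all 3 of the starts printed above, while its coding sequence of 1284 bases was the same length in each coding form used. Gcnt1-201, from the innermost of these starts, took 55.5% of the TPM in library 1 and 52.1% in library 2. The start of Gcnt1-203 and the retained-intron form Gcnt1-202, with the 10 CG dinucleotides before it, took 28.0% and 21.1% together. The farthest start, of Gcnt1-205, with the TATAAA letters before it, took 16.5% and 26.8%. As shares of expected counts, Gcnt1-201 took 68.6% and 64.0% and Gcnt1-203 took 18.7% and 20.3%. Gcnt1-205 took 8.94% and 14.4%, and Gcnt1-202 took 3.76% and 1.34%. TPM divides by length, which is 4594 bases for Gcnt1-201, 4606 for Gcnt1-203, 2046 for Gcnt1-205 and 1122 for Gcnt1-202. The split among starts is an estimate, and no error for it was computed.

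The mucins differed in how their RNA was divided. Selplg-201, with 1251 coding bases, took 78.6% and 80.7% of the Selplg TPM, followed by the short Selplg-205 at 12.9% and 13.9%. Spn-201 took 36.7% and 40.95% of the Spn TPM. Spn-202, at 35.9% and 36.6%, is annotated as a target of nonsense-mediated decay, the pathway that degrades RNA with a stop codon too far from its end, although it has the same 1185 coding bases as Spn-201. Spn-203, a fragment of 597 bases, took 27.4% and 22.5% of the TPM but 6.65% and 5.12% of the expected counts, because TPM divides by length.

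Among the other members, B4galt1-201 held 96.2% and 98.8% of the B4galt1 TPM. St3gal4-201, with 999 coding bases, held 76.5% and 78.3% of that of St3gal4. St3gal6 was spread over more forms, with St3gal6-201 at 47.3% and 35.2% and St3gal6-202, with the same 987 coding bases, at 12.5% and 18.2%. Glg1-201 held 53.8% and 61.6% of the Glg1 TPM, and Glg1-202, annotated for nonsense-mediated decay, held 27.1% and 28.1%. The decay-annotated forms of Spn and Glg1 thus kept nearly the same share in both libraries.

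**Figure D3:**
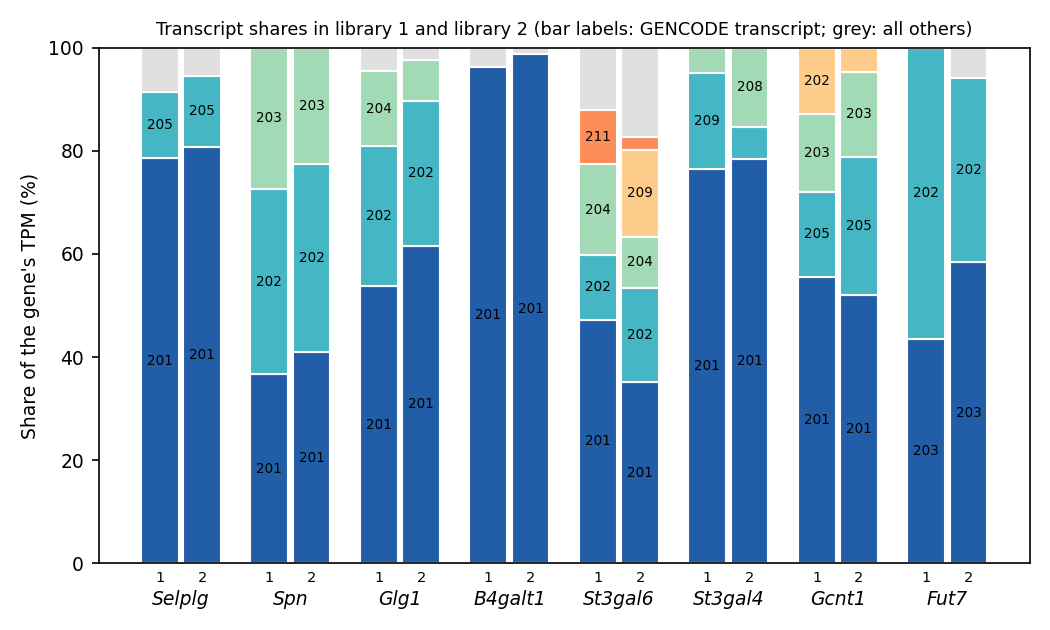
Share of each gene's TPM (vertical axis, %) in its GENCODE transcripts, with the left bar of each pair for library 1 and the right for library 2, and the transcript number written in the bar. Transcripts under 10% in both libraries are in grey. Fut7 is the 1 gene whose largest share passed from one form to another, from 202 (56.4%) to 203 (58.4%).

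Beyond the 9 members, 71 genes in 7 lists cover the rest of the pathway, of which 55 were detected. The binomial test called 21 of the 69 tested higher in library 1 and 24 higher in library 2. The shares over all genes were the same 23.9% and 46.4%, which are also the background for the calls with library totals in each list below. With DESeq2 size factors, 35 of the pathway genes were called higher in library 1 and 18 in library 2. With those factors 7794 and 9468 of all 24253 genes tested were called, which is the background for the DESeq2 calls of each list. The median log2 ratio of the pathway genes tested was -0.03, beside 0.22 for the members, 0.23 for all genes tested and 0.01 for the detected genes. By the 1.5-fold rule, 9 of the 69 lay on the side of library 1 and 14 on that of library 2, against 14.5% and 39.2% of all genes tested.

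The enzymes that start O-glycans were abundant. Of 11 genes 10 were detected, led by Galnt6 at a TPM of 133 ± 18.4, Galnt1 at 128 ± 12.4, Galnt10 at 76.4 ± 16.0 and Galnt2 at 48.4 ± 1.17 (SD, n = 2), which attach the first sugar to serine or threonine. Galnt3 had 0 and 50 counts. In this list 1 gene was called higher in library 1 and 6 in library 2, and with DESeq2 size factors 3 and 3. Among branching and extension enzymes 6 of 11 were detected, led by B3gnt2 at 35.4 ± 3.94, which extends lactosamine chains, and B4galt3 at 32.7 ± 1.57, B4galt5 at 21.8 ± 6.48 and B3gnt3 at 5.80 ± 0.636. Gcnt2, Gcnt3, Gcnt4, B4galt2 and B4galt6 had a TPM under 1 in at least one library. B4galt4 was 3.41-fold higher in library 1 (228 and 55 counts). In the list 2 were called higher in library 1 and 4 in library 2, and 4 and 4 with DESeq2 size factors.

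All 9 other sialyltransferases were detected. St6gal1, which adds sialic acid in alpha2,6 linkage, had the highest TPM of the list at 70.7 ± 1.11, above St3gal6 and St3gal4, followed by the polysialyltransferase St8sia4 at 53.3 ± 2.92, St6galnac4 at 31.0 ± 6.11 and St3gal2 at 21.9 ± 0.474. Of these 9, 7 were called higher in library 1 and 0 higher in library 2 by the exact binomial test. The shares over all genes tested were 23.9% and 46.4%. With DESeq2 size factors 8 and 0 were called. St3gal4 and St3gal6 had ratios on the side of library 2, but neither was called in the small table. The St3gal4 call was also lost with TMM scaling and with DESeq2 size factors. St3gal5 was 2.75-fold (184 and 55 counts) and St6galnac6 3.14-fold (134 and 35.1 counts) higher in library 1, both at a mean TPM under 4. In the small table St3gal5 was 3.27-fold higher in library 1 and was called. St6galnac6 was 1.74-fold higher there (44 and 22 counts) and was not called (adjusted p = 0.0629, exact binomial test). The difference between the members and the rest of the family was not tested.

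Of 8 other fucosyltransferases 5 were detected, led by Pofut2 at 38.4 ± 3.62, the core fucosyltransferase Fut8 at 27.6 ± 2.14, Pofut1, which fucosylates Notch receptors, at 20.8 ± 2.74, and Fut11 at 16.7 ± 4.84. Fut1 had 0 and 24 counts, Fut9 0 and 10, and Fut2 5 and 16.8, all low, with the higher value in library 2, as for Fut4. Fut9 had 0 counts for both libraries in the small table. By the 1.5-fold rule, 39.2% of all genes tested were higher in library 2. Fut10 was 1.70-fold higher in library 1 (109 and 53 counts). In the list 2 were called higher in library 1 and 5 in library 2, and 3 and 4 with DESeq2 size factors.

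All 12 genes of nucleotide sugar supply were detected. Tsta3, an enzyme of GDP-fucose synthesis, stood at 81.2 ± 2.63, the Golgi GDP-fucose transporter Slc35c1 at 67.5 ± 17.2, Cmas, which activates sialic acid, at 67.3 ± 0.403 and Nans at 56.5 ± 1.97. Slc35c1 had a TPM of 55.3 and 79.7 and was 1.44-fold higher in library 2. In this list 4 were called higher in library 1 and 2 in library 2, and 7 and 2 with DESeq2 size factors. Of 8 sulfation genes 6 were detected. Tpst2, one of the enzymes that sulfate the tyrosines PSGL-1 needs to bind P-selectin, stood at 190 ± 39.9, followed by the sulfate donor transporter Slc35b2 at 56.7 ± 10.9, Papss1 at 24.6 ± 0.474 and Tpst1 at 7.92 ± 2.62. Papss2 and Chst4, which sulfates ligands of endothelial venules, were under a TPM of 1. Here 2 were called higher in library 1 and 3 in library 2, and 3 and 3 with DESeq2 size factors.

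Other carriers and linkers were detected for 7 of 12 genes. The linkers of PSGL-1 and CD43 to actin were led by Msn (moesin) at 941 ± 48.0 and Ezr (ezrin) at 308 ± 3.38, with Rdx at 74.7 ± 5.56, and the lysosomal glycoprotein Lamp1 stood at 190 ± 4.28. Selp (0.68 and 1.81) and Sele (0.46 and 0.75), the selectins of platelets and endothelium, were under a TPM of 1 in at least one library, as were Cd34, Podxl and Glycam1. Cd24a was 12.3-fold higher in library 1 (1461 and 98 counts), beside the erythroid and B cell markers, and Cd34 was 10.7-fold higher in library 2 (12.4 and 110 counts). In the small table Cd34 was only 2.50-fold higher in library 2 (12 and 27 counts), while Cd24a was 12.4-fold higher in library 1. The part of erythroid and B cells in the Cd24a value was not tested. In this list 3 were called higher in library 1 and 4 in library 2, and 7 and 2 with DESeq2 size factors.

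**Figure D4:**
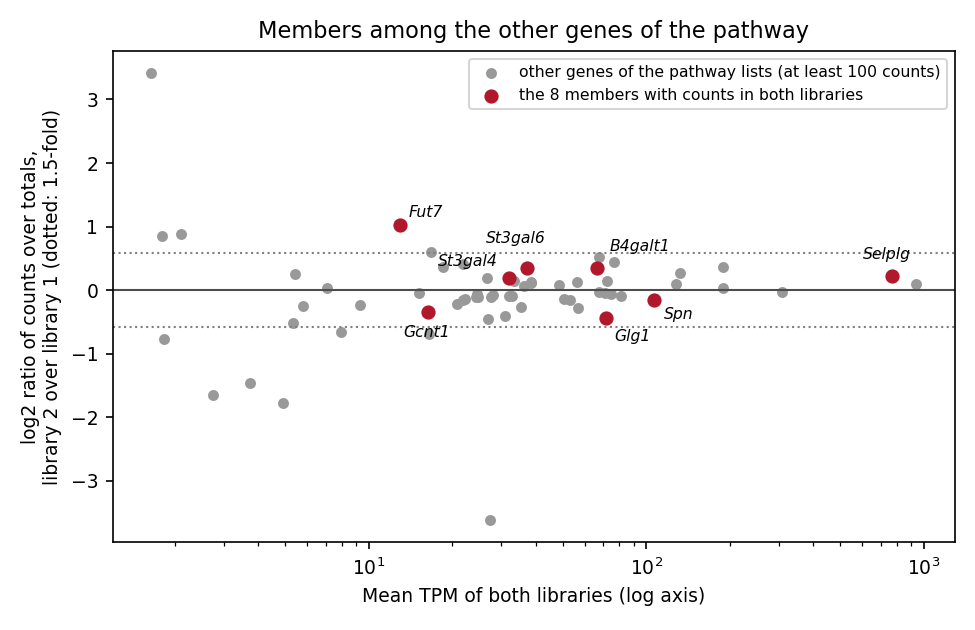
log2 ratio of counts over library totals, library 2 over library 1 (vertical axis), against mean TPM (log axis) for the 8 members with counts in both libraries (red) and the 55 other pathway genes with at least 100 summed counts (grey). Most points lie between the dotted lines of 1.5-fold, Fut7 lies above them at 1.02, and the low point at a mean TPM of 27.4 is Cd24a at -3.62.

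The tables gave Selplg unlike counts. Selplg had 18271 and 17650 expected counts in the large table but 2325 and 2315 in the small one, which is 12.7% and 13.1%, whereas the small table held 29.7% and 31.6% of the large table's total. Glg1 kept 59.4% and 70.8%, Fut7 66.2% and 59.5% and Spn 31.4% and 34.2%. Among all genes matched between the tables with at least 100 counts in the large table, the median share was 45.4% in library 1 and 46.2% in library 2, and Selplg lay at the 9.15 and 9.11 percentiles. In the small table Glg1 had 2940 counts against 2325 of Selplg in library 1, and 2148 against 2315 in library 2. The small table gives no length, so its counts do not rank levels between genes.

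Reads were assigned to the members with little ambiguity. The posterior SD that the authors deposited with each estimated count was 0 for 7 of the 9 members in both libraries, and at most 2.43 counts, for St3gal6 in library 2. St3gal6 overlaps Dcbld2 on the opposite strand, which had a TPM of 0.64 and 1.74, and St3gal4 overlaps the noncoding gene 4930581F22Rik, which had 9.57 and 24.4. These overlaps, of 1603 and 2541 bases, are between whole gene spans and not between exons alone. Whether counting used strand is not stated, and the reads within the overlaps were not examined.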

How the data were processed

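The authors deposited, for each library, large gene and transcript tables with expected counts, TPM and FPKM, derived from transcriptome alignments to mm10 with GENCODE M21, per the deposited description. Per the file headers, the percent of a gene in each of its transcripts is deposited too. Whole-number counts per gene stand in a smaller table that the authors made from an mm10 alignment with GENCODE M4. Which aligner, quantifier and strand setting they used, the sources used here do not say.

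Rows that name no GENCODE gene were left out. Expected counts were rounded and compared between the libraries with a 2-sided exact binomial test (scipy 1.17.1) for genes with at least 10 summed counts, with Benjamini-Hochberg adjustment over all of them and a call at 0.05. Ratios had 0.5 counts added. This test was checked on simulated counts. TMM factors came from edgeR 4.0.16 and size factors from DESeq2 1.42.0. No test between conditions was possible. The members, lists and tests were chosen with earlier results of these data known. Named were all members, the 4 highest genes of each pathway list, those under a TPM of 1, and those at least 2-fold apart with at least 100 counts. With 2 libraries, no likeness of pattern to other genes was measured.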

Additional observations from a re-analysis of the deposited data

How the results depend on the processing

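Each member kept its direction under TMM scaling, DESeq2 size factors, the small table, no minimum of counts and 5 counts added. The 3 members called higher in library 1, the 6 called higher in library 2 and the 2 at least 1.5-fold apart became 1, 3 and 1 in the small table, which holds fewer counts. The scalings moved the median log2 ratio of detected genes from 0.01 to -0.10 (TMM) and -0.14 (DESeq2), and the log2 ratio of Fut7 from 1.02 to 0.91 and 0.87, that of Selplg from 0.22 to 0.11 and 0.08, and that of Glg1 from -0.43 to -0.54 and -0.58. With 5 counts added in place of 0.5, the log2 ratio of Fut4 was 2.76. The count of pathway genes called higher in library 1 rose from 21 to 34 with TMM and 35 with DESeq2 size factors. These alternatives were added after the data were seen. Over all 24253 genes tested, the calls on that side rose too, from 5785 to 7305 with TMM and 7794 with DESeq2 size factors. The 8 members detected stayed 8 at TPM thresholds of 0.1 and 5, with FPKM and in either library alone, and the 55 pathway genes detected ranged from 45 to 62. No paired analysis was possible because there is 1 group. Depth limits Fut4, with 23 counts in all.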
